A study of Homo sapiens with 36 samples.

Results

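The 6 libraries described here compared 2102EP-C1 cells carrying short hairpin RNAs against both KDM6A and KDM6B (sh6A+6B, 3 libraries) with 2102EP-C1 cells carrying the empty pLKO1 vector (3 libraries). Neither group had received cisplatin or the demethylase inhibitor GSK-J4. They are 6 of the 36 RNA-seq libraries of a study of polycomb demethylases in cisplatin-resistant testicular cancer cells, and were taken by their group labels and column names, not by any measured value. All 16459 genes of the knockdown table were tested. 2102EP is an embryonal carcinoma cell line from a human testicular tumour, and 2102EP-C1 is a single cisplatin-resistant clone of it, so both groups share that clone's resistance. Each targeted gene was knocked down with a single hairpin, and the methods describe double selection with puromycin and neomycin for the double knockdown. An effect of a hairpin on other transcripts, or of the selection, therefore cannot be told apart from an effect of losing the 2 targets. The study calls the replicates biological. Separate transductions are not stated. The p-values rest on the spread between libraries within groups, pooled over all 12 libraries of the knockdown table, those treated with cisplatin included.

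KDM6A and KDM6B remove methyl groups from lysine 27 of histone H3. That mark is written by polycomb repressive complex 2, whose catalytic subunit is EZH2, and is bound by polycomb repressive complex 1. In embryonic stem cells and embryonal carcinoma cells the mark covers many developmental genes, among them the HOX clusters, and genes that carry it are mostly silent or low. KDM6A also sits in the KMT2C and KMT2D complexes, which methylate lysine 4 of the same histone at enhancers. The comparison asks what lower KDM6A and KDM6B do to the transcriptome before any drug is given.

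Values are log2 CPM (reads of a gene scaled to the size of its library) as deposited, fold changes are differences of mean log2 CPM (sh6A+6B minus pLKO1), and adjusted p-values are from limma with Benjamini-Hochberg adjustment over all 16459 genes. A gene is called changed, higher or lower, when it passed both limits, a fold change above 1.3 and an adjusted p below 0.05. Each library held between 79424322 and 96782458 reads assigned to genes. Over the 500 genes that differed most in each pair of libraries, the distance between libraries of the same group was 0.562 to 0.598, and between the groups 1.012 to 1.123. The embryonal carcinoma identity was present in both groups: 16 of the 17 markers written for it were measured, and their summed level was 14613 to 14655 CPM with pLKO1 and 13961 to 14022 CPM with sh6A+6B. The yolk sac markers AFP, APOA1 and TTR, the trophoblast markers CGA and GCM1 and the leukocyte marker PTPRC were not among the genes listed. Other markers were: 11 of 25 for yolk sac and endoderm, 10 of 21 for trophoblast and 5 of 11 for immune and endothelial cells. Their summed levels were 227.2 to 228.3, 293.2 to 298.1 and 36.3 to 36.5 CPM with pLKO1. With sh6A+6B they were 260.8 to 264.8, 275.8 to 281.2 and 44.8 to 47.3 CPM.

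KDM6A (GeneID 7403, chrX:44873188-45112779, GRCh38.p14) was at 7.16, 7.17 and 7.15 log2 CPM in the 3 pLKO1 libraries and at 6.14, 6.09 and 6.20 in the 3 sh6A+6B libraries. KDM6B (GeneID 23135, chr17:7834217-7854796) was at 4.61, 4.66 and 4.63 with pLKO1 and at 3.51, 3.61 and 3.75 with sh6A+6B. The groups did not overlap for either gene. KDM6A fell to 49.5% of the control level (log2 fold change -1.01, SE 0.03, adjusted p = 2.1e-18) and KDM6B to 49.6% (-1.01, SE 0.05, adjusted p = 1.8e-14). Of the 3 sh6A+6B libraries, replicate 3 kept the most of both transcripts. The nearest measured genes on each side did not pass both limits. Next to KDM6A, FUNDC1 had a log2 fold change of 0.08 and MIR222HG one of 0.19, and next to KDM6B, DNAH2, which ends 0.475 kb before it, had 0.23 and TMEM88, which starts 0.27 kb after it, had 0.05.

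**Figure D1:**
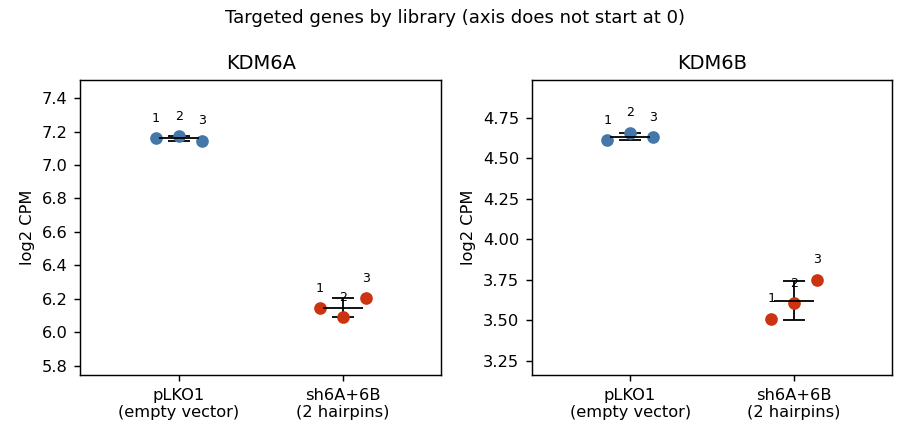
Level of KDM6A (left) and KDM6B (right) in log2 CPM (y axis) in each pLKO1 and sh6A+6B library. Numbers are replicates, the horizontal bar is the mean and the whisker 1 SD of the 3 libraries. In both panels all 3 sh6A+6B libraries lie about 1 log2 unit below the control libraries, and replicate 3 is the highest of them.

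Of the 16459 genes, 1989 (12.1%) were changed, 1044 of them higher (6.34%) and 945 lower (5.74%) in sh6A+6B. Most changes were small. The median size was 0.55 on the log2 scale among the higher genes and 0.52 among the lower genes, and 102 higher and 41 lower genes differed by more than 1. Genes that moved were expressed at low levels, with a median of 1.25 log2 CPM for the higher and 1.07 for the lower genes against 3.79 for all genes. Long noncoding RNAs made up 21.3% of the higher and 13.8% of the lower genes, and 11.1% of all genes tested. Without the fold limit, 8685 genes (52.8%) passed the adjusted p. The 6 libraries did not overlap for 9591 genes (58.3%), so a lack of overlap on its own was common here. Of the 1989 changed genes, 1026 (51.6%) had replicate 3 as the sh6A+6B library nearest to the control mean, against 427 for replicate 1 and 536 for replicate 2. The part of the weaker KDM6A and KDM6B knockdown of replicate 3 in this was not tested.

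**Figure D2:**
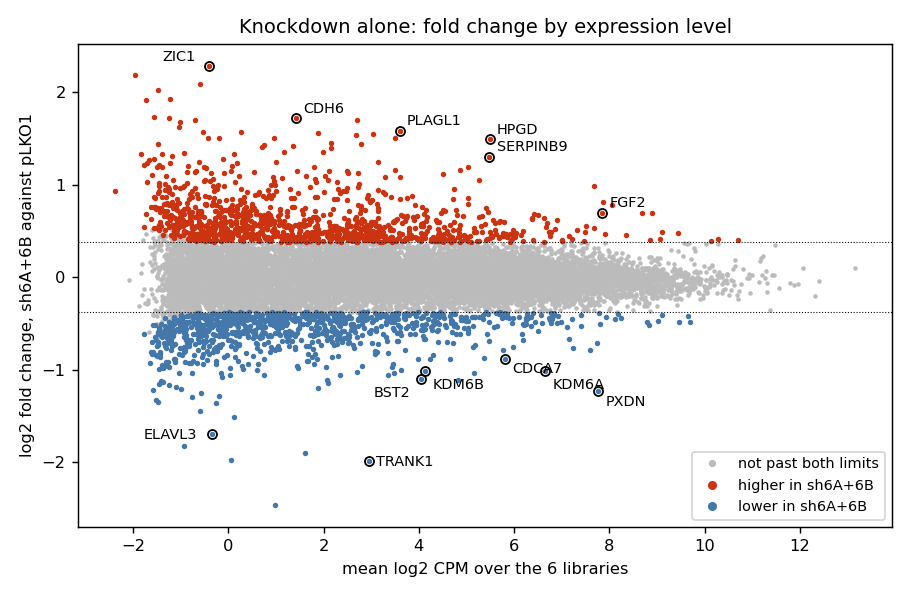
Log2 fold change of sh6A+6B against pLKO1 (y axis) by the mean log2 CPM of the 6 libraries (x axis), 1 point a gene. Red points are higher and blue points lower genes, dotted lines mark a fold change of 1.3, and circles mark named genes. KDM6A and KDM6B lie among the large falls of genes with moderate to high expression, and HPGD and SERPINB9 lie among the large rises at that level.

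The largest rises among the protein-coding genes reported here, with a floor of 1 on the mean log2 CPM, were CDH6, PLAGL1, SOX21, GAD1, HPGD, BHLHE41, SKAP2, TM4SF18, HLA-DQB1, A2M, PCSK1 and SERPINB9. CDH6, a cadherin of kidney and neural crest, was at 0.61, 0.47 and 0.64 log2 CPM with pLKO1 and at 2.33, 2.27 and 2.27 with sh6A+6B (3.29-fold). The gap between the groups was far wider than the spread within either. PLAGL1, an imprinted zinc finger gene that restrains growth, was at 2.75, 2.80 and 2.88 with pLKO1 and at 4.47, 4.41 and 4.29 with sh6A+6B (2.99-fold). SOX21, a SOX factor of neural progenitors, rose 2.91-fold and GAD1, the enzyme that makes the transmitter GABA, 2.85-fold. HPGD, which breaks down prostaglandins, was at 4.74, 4.67 and 4.83 log2 CPM in the controls and at 6.39, 6.19 and 6.13 after knockdown (2.81-fold, adjusted p = 1.2e-16). BHLHE41, a transcriptional repressor of the circadian clock and the hypoxia response, rose 2.73-fold and PCSK1, a prohormone convertase, 2.55-fold. SKAP2, an adaptor protein gene that flanks the HOXA cluster, rose 2.72-fold. A2M, a secreted protease inhibitor, rose 2.56-fold, HLA-DQB1, an HLA class II chain, 2.62-fold, and TM4SF18, a tetraspanin-like membrane protein gene, 2.67-fold. SERPINB9, the intracellular inhibitor of granzyme B, was at 4.82, 4.79 and 4.88 with pLKO1 and at 6.16, 6.17 and 6.06 with sh6A+6B (2.46-fold, adjusted p = 3.9e-19).

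With the same limit to protein-coding genes and the same floor, the largest falls besides KDM6A were TRANK1, PXDN, KCNK12, SLC5A5, SHFL, COL26A1, BST2, NPTX2, MAGEB2, CMKLR1 and ANKRD46. TRANK1 was at 4.02, 3.87 and 3.96 log2 CPM with pLKO1 and at 1.82, 1.69 and 2.37 with sh6A+6B, a fall of 3.97-fold (log2 -1.99, SE 0.11, adjusted p = 6.2e-13). Replicate 3 again lay nearest to the control. PXDN, the peroxidase that crosslinks collagen IV in basement membranes, was at 8.39, 8.38 and 8.39 with pLKO1 and at 7.08, 7.09 and 7.28 with sh6A+6B (2.35-fold lower, adjusted p = 7.8e-18). The control libraries held 29491 to 32147 reads of PXDN and the knockdown libraries 10857 to 12995. SLC5A5, the sodium iodide symporter, was 2.22-fold lower, the potassium channel gene KCNK12 2.29-fold lower and SHFL, an interferon-inducible inhibitor of viral frameshifting, 2.17-fold lower. BST2, which tethers budding virus particles to the cell surface, was at 4.66, 4.56 and 4.54 with pLKO1 and at 3.41, 3.37 and 3.68 with sh6A+6B (2.14-fold lower). COL26A1, a collagen, NPTX2, a secreted pentraxin of synapses, MAGEB2, a cancer-testis antigen, CMKLR1, the chemerin receptor, and ANKRD46 were 2.05-fold to 2.16-fold lower. The 2 groups did not overlap for any of them, which the naming rule required.

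**Figure D3:**
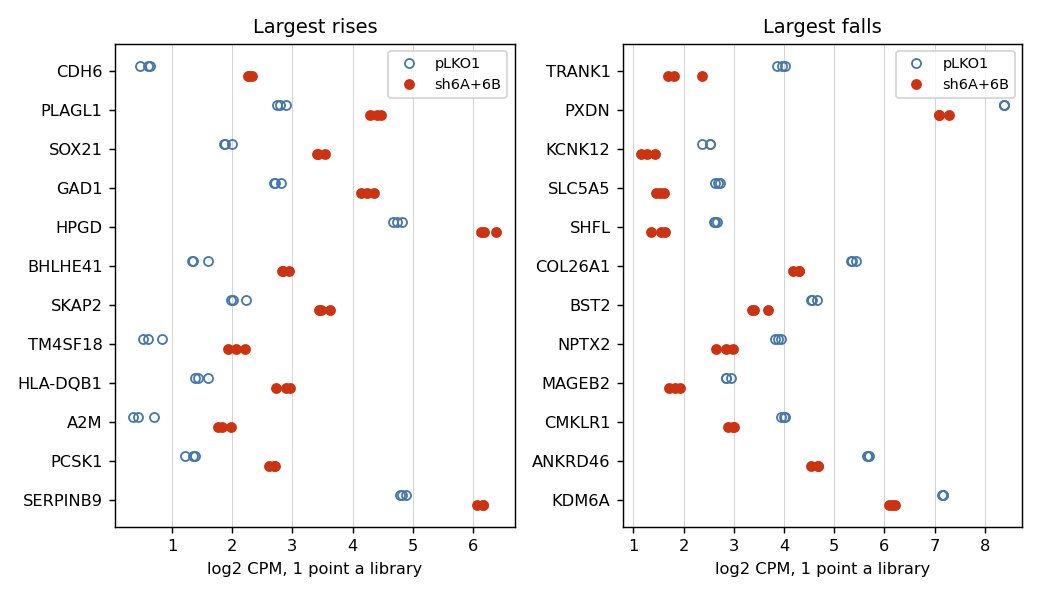
Level in log2 CPM (x axis) of the 12 reported genes with the largest rises (left) and the 12 with the largest falls (right), 1 point a library, open blue for pLKO1 and filled red for sh6A+6B. The groups do not overlap for any of the 24 genes, which the naming rule required, and the spread within a group is small beside the gap between groups.

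The promoters of these genes differed widely in CpG content. RefSeq (GRCh38.p14) gave a promoter window for 20 of the 24 genes. The 250 bases before the start are shown for 3 genes that rose (PLAGL1, BHLHE41, TM4SF18) and 3 that fell (PXDN, NPTX2, BST2), chosen after their values were seen to show CpG-rich and CpG-poor promoters in both directions, with each CpG in capitals and the sequence 5′ to 3′ on the strand of the gene.
PLAGL1, chr6:144064600-144064849, minus strand: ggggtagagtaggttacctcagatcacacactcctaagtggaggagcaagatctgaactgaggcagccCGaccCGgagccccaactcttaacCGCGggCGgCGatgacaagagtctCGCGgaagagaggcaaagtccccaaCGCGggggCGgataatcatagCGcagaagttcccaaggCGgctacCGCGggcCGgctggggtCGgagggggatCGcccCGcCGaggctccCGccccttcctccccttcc
BHLHE41, chr12:26125038-26125287, minus strand: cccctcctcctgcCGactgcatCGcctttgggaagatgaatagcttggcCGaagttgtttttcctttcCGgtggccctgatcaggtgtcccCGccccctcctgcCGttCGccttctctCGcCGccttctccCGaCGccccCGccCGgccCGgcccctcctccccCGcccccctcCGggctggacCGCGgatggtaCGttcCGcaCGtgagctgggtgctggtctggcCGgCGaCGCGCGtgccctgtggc
TM4SF18, chr3:149333637-149333886, minus strand: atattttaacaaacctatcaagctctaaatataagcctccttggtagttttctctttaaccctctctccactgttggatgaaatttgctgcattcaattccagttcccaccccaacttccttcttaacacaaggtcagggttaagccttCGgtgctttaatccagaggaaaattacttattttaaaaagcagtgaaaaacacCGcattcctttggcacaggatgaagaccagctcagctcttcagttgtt
PXDN, chr2:1744516-1744765, minus strand: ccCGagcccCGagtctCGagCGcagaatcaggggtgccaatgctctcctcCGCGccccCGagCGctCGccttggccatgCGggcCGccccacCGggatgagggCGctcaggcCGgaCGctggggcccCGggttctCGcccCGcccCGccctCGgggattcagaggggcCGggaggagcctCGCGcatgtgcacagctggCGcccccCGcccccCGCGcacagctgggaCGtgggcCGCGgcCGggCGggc
NPTX2, chr7:98617035-98617284, plus strand: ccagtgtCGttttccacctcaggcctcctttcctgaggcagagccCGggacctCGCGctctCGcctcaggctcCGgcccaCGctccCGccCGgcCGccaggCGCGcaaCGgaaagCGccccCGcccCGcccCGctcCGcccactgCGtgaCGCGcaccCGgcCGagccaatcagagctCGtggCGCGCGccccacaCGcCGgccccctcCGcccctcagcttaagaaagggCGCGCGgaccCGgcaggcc
BST2, chr19:17405631-17405880, minus strand: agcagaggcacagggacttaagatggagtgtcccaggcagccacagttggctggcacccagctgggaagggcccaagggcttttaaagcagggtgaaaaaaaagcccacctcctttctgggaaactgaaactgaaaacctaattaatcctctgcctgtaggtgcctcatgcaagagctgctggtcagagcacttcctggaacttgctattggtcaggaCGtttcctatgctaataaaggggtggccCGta

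The windows of PXDN and NPTX2 held 32 and 34 CpGs, those of PLAGL1 and BHLHE41 21 and 26, and those of TM4SF18 and BST2 2 each. The median was 20 over the 12530 genes of the table that had such a window. Over all genes, changed genes in both directions had a smaller share of CpG-rich promoters. The ratio of observed to expected CpGs was computed in the 300 bases around the start of the canonical GENCODE transcript, and it was above 0.6 for 63.4% of the higher genes, 65.6% of the lower genes and 83.3% of the genes that did not pass both limits. Of the 2863 genes at or below that ratio, 11.2% were higher and 10.3% lower, and of the 12358 above it, 4.51% and 4.55%. CpG-poor genes were also expressed at lower levels (median 1.38 against 4.57 log2 CPM). Among genes above 3 log2 CPM the shares were 7.59% higher and 5.44% lower for CpG-poor promoters and 2.29% and 2.08% for CpG-rich ones.

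The lists of chromatin regulators are short and their counts small. Over all genes 6.34% were higher and 5.74% lower. Of 21 measured lysine demethylases, only KDM6A and KDM6B passed both limits, and the median log2 fold change of the family was -0.02, against -0.005 for all genes. Among the others, KDM2B and KDM4A had log2 fold changes of -0.17 and -0.05. Of 13 genes of polycomb repressive complex 2 and its partners, JARID2, the subunit that helps target the complex to chromatin, was higher (0.40, SE 0.02, adjusted p = 8.9e-16), at 8.64, 8.65 and 8.67 log2 CPM with pLKO1 and at 9.06, 9.07 and 9.03 with sh6A+6B. The catalytic subunit EZH2 had a log2 fold change of -0.24 (adjusted p = 2.7e-09), below the fold limit. Of 26 genes of polycomb repressive complex 1, YAF2 was higher (0.67) and CBX7, a chromodomain reader of the H3K27 mark, and PCGF3 were lower (-0.51 and -0.46). These shares, 3.85% higher and 7.69% lower, were near those of all genes. None of the 18 subunits of the KMT2 and SETD1 complexes passed both limits, WDR5 coming nearest at -0.28. KMT2A and KMT2D, the methyltransferases themselves, had -0.13 and -0.16, and the remodellers CHD2, CHD3, CHD4 and SMARCA4 lay between -0.12 and 0.02. The signs of CHD2 and SMARCA4, close to 0, turned under other processing and carry no direction.

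The DNA methylation machinery had 3 lower (16.7%, against 5.74% of all genes) and no higher genes of 18. CDCA7, which activates the remodeller HELLS, was at 6.22, 6.25 and 6.28 log2 CPM with pLKO1 and at 5.37, 5.33 and 5.40 with sh6A+6B (log2 fold change -0.88, SE 0.03, adjusted p = 7.4e-18). DNMT3L, the catalytically inactive partner of the de novo methyltransferases, had -0.57, and UHRF1, which brings DNMT1 to replicating DNA, -0.43. DNMT3B, the main de novo methyltransferase of pluripotent cells, had -0.35 (SE 0.01, adjusted p = 7.6e-16), just below the fold limit of 0.379 on the log2 scale, and DNMT1 had -0.13.

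Of 13 measured HOX genes described here 8 (61.5%) were higher and 1 (7.69%) lower, against 6.34% and 5.74% of all genes, with a median log2 fold change of 0.56. Another 25 were not among the genes listed. The authors kept genes above 0.5 CPM (-1 on the log2 scale), and 3 of the 8, HOXA4, HOXC10 and HOXD9, were below that in all 3 pLKO1 libraries, so they entered the table through libraries where they were higher and the count and median lean toward rises. In the HOXA cluster HOXA4 (1.92), HOXA10 (0.61), HOXA7 (0.56) and HOXA13 (0.40) rose. HOXA4 was very low, at -2.58, -3.14 and -2.32 log2 CPM with pLKO1 and -0.68, -0.94 and -0.66 with sh6A+6B. HOTAIRM1, a noncoding RNA of the HOXA cluster, was at -1.58, -1.46 and -1.87 with pLKO1 and at 0.48, 0.43 and 0.45 with sh6A+6B (2.09, SE 0.16, adjusted p = 8.4e-11), and was likewise below the filter in every control. HOXC10 (1.21), HOXD9 (0.80), HOXB3 (0.73) and HOXB13 (0.56) rose in the other clusters. HOXB1 went the other way, from 3.94, 3.89 and 3.95 to 2.82, 3.00 and 3.14 (-0.94, adjusted p = 7.8e-13). The groups did not overlap for HOTAIRM1 or HOXB1.

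Of 122 other developmental transcription factors, 32 (26.2%) were higher and 13 (10.7%) lower, against 6.34% and 5.74% of all genes, with a median of 0.06. Of the 32, 4 were below the filter of 0.5 CPM in all 3 pLKO1 libraries, HHEX among them, and of the 13, 3 were below it in all 3 sh6A+6B libraries, so these could enter the table only through other libraries. The largest rises were ZIC1 (2.28), a zinc finger factor of the neural plate, HHEX (1.93), a homeobox factor of anterior endoderm, PLAGL1 and SOX21. ZIC1 was at -1.90, -1.94 and -0.80 log2 CPM with pLKO1 and at 0.78, 0.80 and 0.64 with sh6A+6B. Among these controls only replicate 3 lay above 0.5 CPM. The filter needs at least 2 samples, so ZIC1 too could enter the table only with the help of other libraries. ZIC2 and its neighbour ZIC5, named after their values were seen, rose by 1.19 and 1.24 and lie side by side on chromosome 13, between CLYBL, which was also higher (0.66), and PCCA, which had 0.07. The largest falls were PAX5 (-0.69), the B lineage and midbrain factor, NKX3-2 (-0.63), TBX1 (-0.62) and ISL2 (-0.61). After the length and GC trend was removed, 34 of the 122 were higher and 6 lower.

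Genes of the stem cell state and markers of differentiated lineages were counted side by side. Over all genes 6.34% were higher and 5.74% lower. Of 45 pluripotency genes 4 were higher, FGF2 (0.70), FOXD3 (0.56), ZFP42 (0.49) and POLR3G (0.48), and 3 lower, UTF1 (-0.79), DPPA3 (-0.48) and FGF4 (-0.39), with a median of -0.05. POU5F1, the core factor that defines embryonal carcinoma, had -0.08 (adjusted p = 2.0e-04), and of the 16 embryonal carcinoma markers only TNFRSF8, which encodes the diagnostic antigen CD30, passed both limits (0.40). Of 12 measured markers of mesoderm and primitive streak, 7 were higher, with a median of 0.61: TWIST1 (1.50), MYL7 (1.27), the streak factor EOMES (1.15) and SP5 (1.09) led, and FOXC2 was lower (-0.42). EOMES was at a mean of 1.9 log2 CPM in the controls, and the summed level of the 12 markers was 97.6 to 98.7 CPM with pLKO1 and 130.5 to 136.3 CPM with sh6A+6B. Of 15 neuroectoderm markers 4 were higher, ZIC1, SOX21, OLIG3 (1.12) and SIX3 (0.44), while ELAVL3, an RNA-binding protein of neurons, was lower (-1.69, SE 0.16, adjusted p = 2.8e-09). As given above, ZIC1 could not enter the table through the pLKO1 libraries alone. The summed level of the 15 went the other way, from 552.1 to 556.4 CPM with pLKO1 to 488.8 to 507.5 CPM with sh6A+6B. Of the 25 markers written for yolk sac and endoderm 11 were measured. Of these 11, 5 were higher, led by HHEX, the fibrinogen chain FGA (1.70) and A2M, and none was lower. Of the 5, 2 were below the filter of 0.5 CPM in all 3 pLKO1 libraries. These 2 could enter the table only through other libraries, so the count leans toward rises. Of 10 trophoblast markers, HAND1 (0.49) and TFAP2A (0.47) were higher and ERVW-1 (-0.53) lower, and of 7 seminoma markers PRDM1 (0.45) was higher and DPPA3 and DDX4 (-0.65) lower. Of these 2 lower seminoma markers, 1 was below the filter in all 3 sh6A+6B libraries. In bulk RNA a few cells with high levels and many cells with slightly raised levels cannot be told apart.

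**Figure D4:**
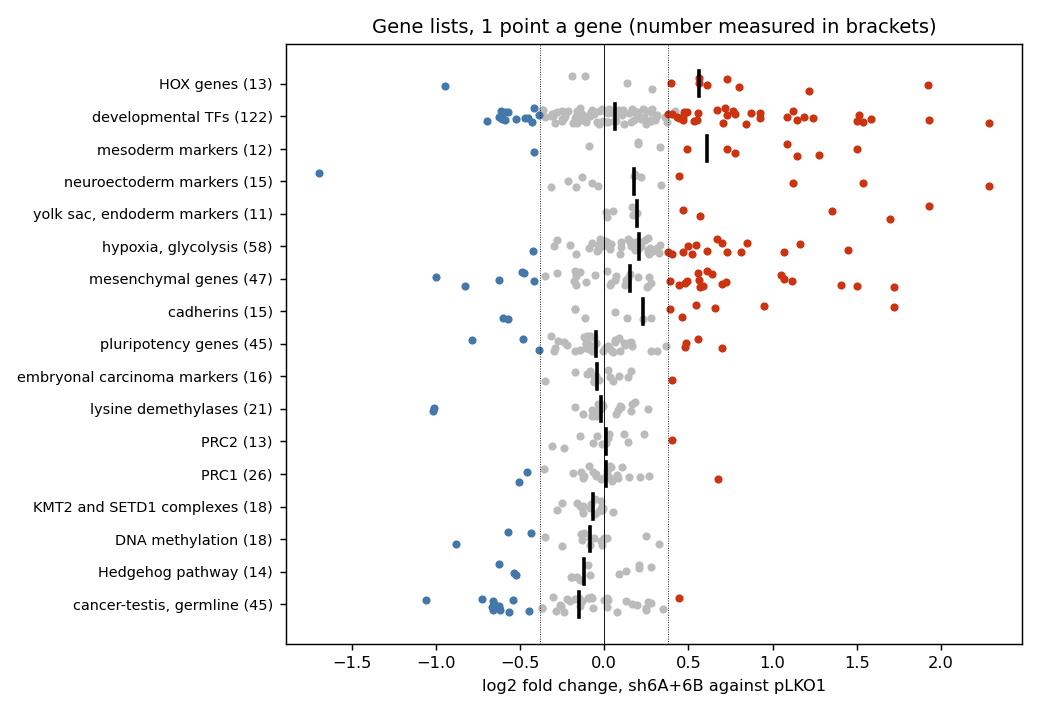
Log2 fold change of sh6A+6B against pLKO1 (x axis) for the members of 17 gene lists, 1 point a gene, with the number measured in brackets. Red genes were higher, blue genes lower, gray genes did not pass both limits, and the black bar is the list's median. The medians of the HOX genes (0.56) and mesoderm markers (0.61) lie above 0.5, while those of the polycomb complexes and lysine demethylases lie near 0.

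The signalling pathways moved in parts. Of 24 genes of the retinoic acid response, HOTAIRM1, MEIS2 (1.51) and MEIS1 (0.84) were higher and 6 were lower, led by TGM2 (-0.97), HOXB1, the receptor RXRA (-0.55) and RET (-0.51). HOTAIRM1 was below the filter of 0.5 CPM in every control. Below it in all 3 sh6A+6B libraries were 1 of the 4 lower WNT genes and 1 of the 3 lower NODAL, activin, BMP and TGF-beta genes. Of 14 Hedgehog genes none was higher and 3 were lower, namely the pathway's transcriptional targets HHIP (-0.62), PTCH1 (-0.54) and GLI1 (-0.53), with a median of -0.12. PTCH1, the receptor that restrains the pathway, fell with an adjusted p of 4.5e-13. Of 56 genes of the NODAL, activin, BMP and TGF-beta pathways 6 were higher, led by the BMP antagonist GREM1 (1.13), the activin subunit INHBA (0.78) and the activin antagonist FST (0.54), and 3 were lower, BMP6 (-0.64), ACVRL1 (-0.60) and SMAD2 (-0.41). Of 47 WNT genes 3 were higher and 4 lower, a share near that of all genes, with the WNT target SP5 the largest rise and RSPO4 (-0.73) the largest fall. Of 53 genes of FGF, EGF, VEGF and KIT ligand signalling 11 were higher and 4 lower, with a median of 0.15. IGFBP5 (1.05), the ERK phosphatase DUSP6 (0.86), FGF10 (0.86) and KITLG (0.73), the ligand of the KIT receptor, led the rises, and FGF17 (-1.06), FGF1 (-1.001), FGFR3 (-0.50) and FGF4 led the falls.

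The hypoxia and mesenchymal genes that changed were mostly higher, where 6.34% of all genes were higher and 5.74% lower. Of 58 genes of the hypoxia response and glycolysis 15 (25.9%) were higher and 1 lower, with a median of 0.21. The rises were led by BHLHE41, ADM, the vasodilator peptide adrenomedullin, LOX, which crosslinks collagen, and BHLHE40 (0.85), and the fall was EGLN3 (-0.42), a prolyl hydroxylase that marks HIF for degradation. ADM rose 2.24-fold (adjusted p = 1.9e-16). Of 47 mesenchymal and TGF-beta responsive genes 18 (38.3%) were higher and 6 lower, with a median of 0.15. CDH6, TWIST1, EMP1 (1.40) and HAS2 (1.11), the hyaluronan synthase, led the rises, and LGALS1 (-0.9997), AXL (-0.82), S100A4 (-0.62) and EMP3 (-0.49) the falls. The epithelial list had no member higher and 2 of 39 lower, TJP3 (-0.40) and OVOL1 (-0.42), with a median of -0.02. Of 7 markers of fibroblasts and other stroma, PDGFRB (0.61), POSTN (0.55) and THY1 (0.44) were higher. COL1A1 and COL1A2 were measured and did not pass both limits, and COL3A1, DCN, LUM and FAP were not among the genes listed. The summed level of the 7 was 310.2 to 319.2 CPM with pLKO1 and 370.3 to 386.8 CPM with sh6A+6B.

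The lists of adhesion, guidance and matrix genes held members of both directions, as did all genes (6.34% higher and 5.74% lower). Among the higher genes, 1 cadherin, 1 gene of the semaphorin list and 1 integrin were below the filter of 0.5 CPM in all 3 pLKO1 libraries. Among the lower genes, 1 integrin was below it in all 3 sh6A+6B libraries. Of 15 cadherins 6 were higher, led by CDH6, CDH10 (0.95), CDH7 (0.66) and CDH8 (0.54), and CDH4 (-0.60) and CDH23 (-0.57) were lower. Of 59 protocadherins 3 (5.08%) were higher, with PCDH20 (1.19) first, and 6 (10.2%) lower, with PCDHB16 (-0.97) first. The clustered protocadherins share sequence, so their counts are less certain. Of 49 semaphorins, ephrins and their receptors 7 were higher, led by SEMA3C (1.27), the ephrin receptor EPHA3 (1.08) and the neuropilins NRP1 (1.04) and NRP2 (0.68), and 4 were lower, led by SEMA5B (-0.62). Of 35 collagens COL11A1 (1.12), COL12A1 (0.91), COL21A1 (0.77), COL4A6 (0.71) and 3 more were higher and COL26A1 (-1.11), COL7A1 (-0.86), COL5A3 (-0.77) and COL16A1 (-0.50) lower. Of 23 integrins 2 were higher and 4 lower, ITGB4 (-0.88) being the largest fall, and of 11 laminins LAMA4 (0.47) and LAMA2 (0.41) were higher and LAMA3 (-0.40) lower.

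Of 43 interferon-stimulated genes 4 (9.30%) were higher and 4 (9.30%) lower, with a median of 0.04, against 6.34% and 5.74% of all genes, so calls in both directions were not particular to them. GBP6 (1.72), IFIT3 (0.76), IFIT2 (0.69) and LGALS3BP (0.39) were higher and BST2 (-1.10), SAMD9 (-0.70), ISG15 (-0.58) and PARP14 (-0.43) lower. Of the 4 higher genes, 2 were below the filter of 0.5 CPM in all 3 pLKO1 libraries. Of the 4 lower genes, 1 was below it in all 3 sh6A+6B libraries. These could enter the table only through other libraries. The letters GAAANNGAAA, the core of the interferon-stimulated response element, were searched on both strands of the 300-base RefSeq promoters. They occurred in 20 of the 32 list members with a promoter (62.5%) and in 2.6% of all 12530 promoters. Of the members that changed, 4 of 4 lower and 2 of 3 higher genes with a promoter carried the letters, and the log2 fold changes of all 20 carriers ran from -1.10 to 0.76 with a median of 0.05. The first match in each changed carrier is shown within 40 bases, with the matching letters in capitals, to show the element in genes of each direction.
BST2, chr19:17405736-17405775, minus strand: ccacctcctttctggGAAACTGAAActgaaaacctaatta
SAMD9, chr7:93118091-93118130, minus strand: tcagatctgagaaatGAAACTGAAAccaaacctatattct
ISG15, chr1:1013369-1013408, plus strand: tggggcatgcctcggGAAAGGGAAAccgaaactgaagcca
PARP14, chr3:122680795-122680834, plus strand: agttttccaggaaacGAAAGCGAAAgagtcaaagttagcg
IFIT3, chr10:89327826-89327865, plus strand: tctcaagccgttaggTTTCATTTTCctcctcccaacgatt
LGALS3BP, chr17:78979957-78979996, minus strand: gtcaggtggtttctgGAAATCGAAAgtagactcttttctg

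The germline genes that changed were mostly lower. Of 45 cancer-testis antigens and germline genes 12 (26.7%) were lower and only TEX14 (0.45) higher, with a median of -0.15. Over all genes 5.74% were lower and 6.34% higher. Of the 12, 2 were below the filter of 0.5 CPM in all 3 sh6A+6B libraries, so the count leans toward falls. MAGEB2 was at 2.85, 2.94 and 2.85 log2 CPM with pLKO1 and at 1.71, 1.84 and 1.92 with sh6A+6B (-1.06, adjusted p = 8.6e-12). BRDT, the testis bromodomain protein, had -0.72, NLRP7, a gene of the oocyte and early embryo, -0.67, and MAEL, which acts in transposon silencing, -0.66. Of 41 imprinted genes PLAGL1 and LPAR6 (0.39) were higher and PEG3 (-0.53), DLK1 (-0.46) and ZIM2 (-0.44) lower. PEG3 and ZIM2 share a promoter region, and counts there can be split between them.

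In the lists of replication, mitosis and ribosomal proteins few members passed the fold limit, but most had a small negative fold change. Without that limit 43 of 54 replication genes, 34 of 48 mitosis genes and 65 of 85 ribosomal protein genes were lower at an adjusted p below 0.05, and 2, 3 and 2 were higher. Over all genes 27.2% were lower and 25.6% higher at that adjusted p. Their medians were -0.18, -0.10 and -0.11, and in the cisplatin-treated pair -0.075, 0.022 and 0.154. Of 54 genes of DNA replication and the G1/S transition CCNE2 (0.40) was higher and E2F2 (-0.45), CDT1 (-0.43), MSH6 (-0.42) and GINS2 (-0.38) lower past both limits. Of 48 mitosis genes CDCA8 (-0.48) and MYBL2 (-0.45) were lower, of 85 cytosolic ribosomal proteins only RPL3L (-0.50), and of 14 genes of HLA class I and antigen processing only TAPBP (-0.65). The replication-dependent histones had 3 of 32 higher, H2BC17 (0.48), H2AC6 (0.46) and H3C6 (0.45), and none of 18 small RNA pathway genes passed both limits, DICER1 having 0.27. Of 65 p53 targets 8 (12.3%, against 6.34% of all genes) were higher, led by KITLG, TRIM22 (0.71), PRDM1 and ANXA1 (0.44), and STEAP3 (-0.45) was lower. After the length and GC trend was removed, 5 of the 65 were higher, and in the cisplatin-treated pair 4 were. PMAIP1, the p53 target that encodes NOXA, had -0.29.

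Calls followed the base composition of the transcript. The median GC content was 44.2% for the higher genes, 55.7% for the lower genes and 47.7% for genes that did not pass both limits. With the genes split by GC into 10 equal bins, 7.68% were higher and 2.43% lower in the lowest bin, and 1.58% and 12.5% in the highest. After a smooth trend of each library on transcript length and GC was removed, 1590 genes were changed, 1433 of them the same genes in the same direction among the 1735 changed genes that had a transcript. The shares were then 5.25% and 3.55% in the lowest bin and 4.07% and 5.98% in the highest. HOX genes (7 higher, 1 lower), hypoxia genes (17 and 1) and germline genes (1 and 12) kept similar counts. The p53 targets went from 8 higher and 1 lower to 5 and 1, and the epithelial list then had 1 gene higher and none lower. Whether the composition trend arose in library preparation or in the cells was not tested.

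**Figure D5:**
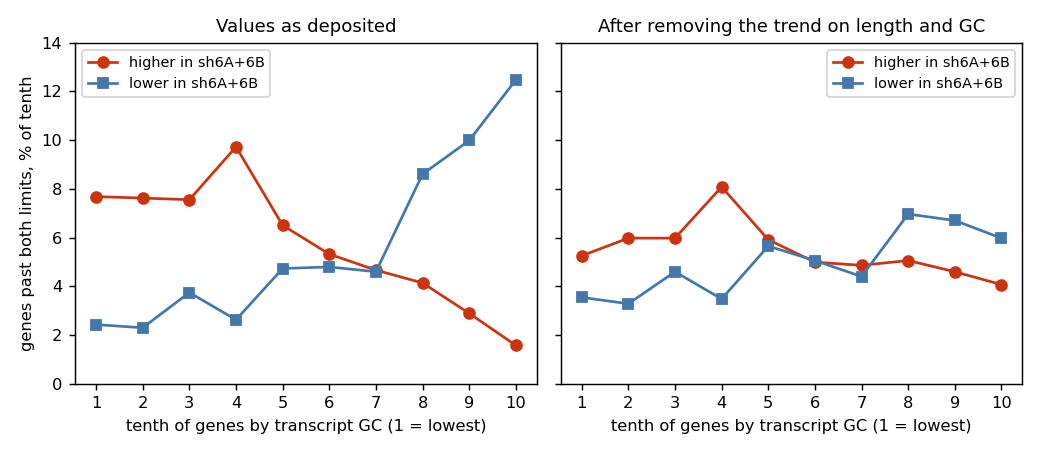
Share of genes past both limits (y axis, percent) in each of 10 equal bins of the genes ordered by transcript GC content (x axis), as deposited (left) and after removing a trend on transcript length and GC from each library (right). Red circles are higher and blue squares lower genes. On the left the lower genes climb from 2.43% to 12.5% while the higher genes drop from 7.68% to 1.58%, and on the right the lines lie closer together.

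The knockdown was also measured in 6 other libraries, in which both groups had received 0.5 µM cisplatin for 6 h. No library is shared, but the cells are of the same transduced lines, so the 2 pairs may not be independent. There, 1053 genes (6.40%) were higher and 1444 (8.77%) lower. Of the 1044 genes higher without cisplatin, 1008 (96.6%) had the same sign with it and 616 (59.0%) passed both limits again. Of the 945 lower genes, 919 (97.2%) had the same sign and 629 (66.6%) passed again. CDH6 (1.68 with cisplatin), HPGD (1.51), TRANK1 (-1.96) and PXDN (-1.22) had log2 fold changes close to those without the drug. KDM6A had -0.96 and KDM6B -1.24, the latter differing from its value without the drug (adjusted p of the difference = 0.0082). In all, 246 higher and 167 lower genes had a knockdown effect that differed between the 2 pairs, where 35.1% of all genes did, and for 230 and 101 of these the effect was smaller with cisplatin. Genes chosen for a large effect in 1 pair tend to have a smaller one in the other. JARID2 was one of them, with 0.40 without and 0.10 with cisplatin (adjusted p of the difference = 2.3e-10).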

How the data were processed

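RNA was sequenced from stranded mRNA libraries on an Illumina HiSeq instrument. Per the study's methods and the labels' processing notes, the authors used Trimmomatic for trimming, STAR for alignment (GRCh38.p14) and featureCounts for counting, kept genes above 0.5 CPM in at least 2 samples, applied TMM and used limma. The deposited values are log2 CPM from the authors, and no replicate was pooled. Reads were recovered from them: all 12798 values below 50 reads came out whole within 0.05 with a prior count of 3, which gave the depth of each library and the read numbers printed. GeneIDs were named through RefSeq (16443 of 16459 genes).

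limma 3.58.1 (R 4.3.3) was fitted to the log2 CPM of all 12 knockdown libraries, with an intensity trend and 4 group means, and tested on simulated reads. Fits with other samples, filters, scalings, a replicate block or a library left out are given in the closing section. Sets of genes were described by counts and medians, with no test. The design named limma for log2 CPM values and a count-based test only for raw counts. The deposited values were log2 CPM. A gene was named if it was among the 12 largest rises or falls of protein-coding genes with a mean of at least 1 log2 CPM and no overlap, among the 4 largest changes a direction of a list (the 2 largest where none passed), one of a short list of chromatin and p53 genes, or a neighbour of a target. BMI1 and sequences of the hairpins were not analysed here, and a few genes kept in the fit are not reported here and are left out of lists and figures. The lists, rules and comparisons were chosen with earlier results of these data known. Transcript GC and length came from the longest GENCODE v44 transcript (15222 genes) and the CpG ratio from hg38 (15221 genes). Python 3.11.15 made tables and figures.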

Additional observations from a re-analysis of the deposited data

Results flagged for a closer look

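The genes below were named and had a knockdown effect that differed between untreated and cisplatin-treated cells, with a difference above the 1.3-fold limit and an adjusted p below 0.05. The difference is the effect with cisplatin minus the effect without, in log2 units, and was tested in the same limma fit.

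The 6 rises listed first were smaller with cisplatin. They were chosen for passing both limits without it, which favours a smaller value in the other pair. NRP1 had a log2 fold change of 1.04 without and 0.23 with cisplatin (difference -0.81, adjusted p = 0.0031), INHBA 0.78 and 0.13 (-0.65, adjusted p = 0.002), BHLHE41 1.45 and 0.88 (-0.56, adjusted p = 8.9e-05), COL12A1 0.91 and 0.38 (-0.54, adjusted p = 0.00066), COL11A1 1.12 and 0.61 (-0.52, adjusted p = 2.5e-05) and FOXD3 0.56 and 0.17 (-0.39, adjusted p = 0.0038). The falls of S100A4, -0.62 and -0.16 (difference 0.46, adjusted p = 0.00055), and MAEL, -0.66 and -0.21 (0.45, adjusted p = 0.00036), were smaller too, while that of PTCH1 was larger, -0.54 and -0.93 (-0.39, adjusted p = 9.2e-08).

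The 4 chromatin regulators named here did not pass both limits without cisplatin and had larger negative values with it. They were picked for this difference, so they do not stand for their families. With cisplatin 5 of 18 subunits of the KMT2 and SETD1 complexes were lower, where 8.77% of all genes were, and no lysine demethylase besides the targets was. The median with cisplatin was -0.168 for these subunits and -0.195 for the lysine demethylases, against 0.001 for all genes. The CHD remodellers were not counted as a list. KMT2D had -0.16 and -0.91 (difference -0.75, adjusted p = 4.3e-12), KMT2A -0.13 and -0.68 (-0.56, adjusted p = 1.8e-11), CHD2 0.02 and -0.45 (-0.47, adjusted p = 4.3e-11) and CHD3 -0.12 and -0.58 (-0.47, adjusted p = 1.7e-09). DICER1 had 0.27 and -0.14 (difference -0.41, adjusted p = 1.9e-09), and MIR222HG, the neighbour of KDM6A, 0.19 and -0.43 (-0.62, adjusted p = 0.0014). Over all genes tested, 35.1% had an adjusted p below 0.05 for this difference, with no limit on its size.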

How the results depend on the processing

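Requiring a mean above 1 log2 CPM over the 12 libraries left 12647 genes to test, of which 1046 were changed, 560 higher and 486 lower, and 666 were changed the same way in both knockdown pairs, against 1245 without that filter. In the other alternatives the number of changed genes stayed between 1590 (length and GC removed) and 2250 (fold above 1.2 and adjusted p below 0.001). Leaving out each of the 12 libraries in turn gave 1836 changed genes (without sh6A+6B replicate 1) to 2087 (without sh6A+6B replicate 3), log2 fold changes of -1.04 to -0.99 for KDM6A and -1.07 to -0.95 for KDM6B, and 363 to 473 genes whose effect differed with cisplatin. Same-numbered pLKO1 and sh6A+6B libraries did not deviate together (correlations -0.17 to -0.08). These 3 pairs cannot show whether same-numbered libraries were grown or prepared together. Over all 4 groups the correlations were -0.17 to 0.332 for the same number and -0.356 to 0.182 for different numbers. Between sh6A+6B libraries without and with cisplatin they were 0.324 for number 1, 0.332 for number 2 and 0.089 for number 3. A fit with the replicate number as a block gave 2000 changed genes (1986 of the 1989), 1248 in both pairs and 434 that differed with cisplatin, and 1590 changed genes when length and GC were also removed. Of 176 named genes past both limits, 142 kept both limits and direction in every alternative that could be fitted, and none reversed. Among those not past them, SMARCA4 went to 0.0901 and CHD2 to -0.0189 after length and GC were removed, with or without the block, SMARCA4 to 0.0041 with library size scaling alone, and TMEM88 ranged from -0.0193 (without sh6A+6B replicate 2) to 0.1033 with 1 library left out. The causes were not tested. Library size scaling alone gave 1121 higher and 882 lower genes.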

Other observations

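Of the 13 protein genes of the mitochondrial genome 6 were higher after knockdown and none lower, against 6.34% and 5.74% of all genes. All 13 had a positive log2 fold change, with a median of 0.36. The rises were led by ATP6 (0.48), ND6 (0.48) and CYTB (0.41). Their summed share of the reads was 0.99% to 1.0% with pLKO1 and 1.27% to 1.28% with sh6A+6B. In the cisplatin-treated pair the 13 log2 fold changes ran from -0.23 to 0.05.

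Calls were spread unevenly over the chromosomes. Of 13933 protein-coding genes 5.60% were higher and 5.60% lower. Chromosome 13 had 30 of 229 genes higher (13.1%) and none lower, with a median log2 fold change of 0.10 against -0.01 for all protein-coding genes. The 5 with the largest rises were SOX21 (1.54), ZIC5 (1.24), ZIC2 (1.19), PCDH20 (1.19) and TRPC4 (1.11). In the cisplatin-treated pair 28 of the 30 had the same sign, as did 96.6% of all higher genes. The starts of the 30 ran from position 23570412 to 113122799. After the length and GC trend was removed, 28 genes of chromosome 13 were higher and 1 lower. Chromosome 19 had 8 of 1042 genes higher (0.77%) and 107 lower (10.3%), and 13 higher and 73 lower after the trend was removed.

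Among long noncoding RNAs, named here after their values were seen, SOX2-OT, whose transcript spans the SOX2 gene, rose by 1.69 (SE 0.06, adjusted p = 6.7e-17), from 1.84, 1.84 and 1.92 log2 CPM with pLKO1 to 3.69, 3.54 and 3.45 with sh6A+6B. MED4-AS1 on chromosome 13 and LINC01108 on chromosome 6 rose by 1.54 and 1.56. LOC105375065 fell by 1.90 (adjusted p = 2.1e-12), the largest change of a long noncoding RNA with a mean of at least 1 log2 CPM, and LINC00698 fell by 1.03. Among protein-coding genes, AHNAK2, whose mean over the 6 libraries lay just under 1 log2 CPM, was at 2.24, 2.23 and 2.18 with pLKO1. It was at -0.22, -0.94 and 0.42 with sh6A+6B (log2 fold change -2.46, SE 0.19, adjusted p = 1.4e-10).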
